A study of Mus musculus with 6 samples.

Results

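Of the scaffold and ankle link genes tied to Usher syndrome and hair cell deafness, 8 listed genes were followed in the mouse cochlea, the coiled organ of hearing: Ush1c, Ush1g, Whrn, Adgrv1, Pdzd7, Clrn1, Clrn2 and Gipc3. They were taken by name, and each symbol matched 1 Ensembl gene ID, giving 8 of the 55769 features in the files. The tissue was the whole cochlea of mice on postnatal day 3, sequenced as total RNA in 3 libraries from Plscr5-/- mice (knockout) and 3 from wild-type mice. Plscr5 encodes a member of the phospholipid scramblase family. The labels give no strain, sex, targeted exon or number of animals per library, so p-values measure only how far these libraries differ, which may in part be technical. Their extraction text names a Pou4f3 mutant line that no library title names. Pou4f3, a transcription factor of hair cells, had 35.82, 31.63 and 31.24 TPM in knockout cochleae, against 37.78, 33.89 and 36.46 TPM in wild-type cochleae, and the genotype labels were used as given.

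Hair cells detect sound with the hair bundle, a staircase of actin-filled stereocilia joined by fine extracellular links. Tip links pull on the transduction channels and are anchored inside the cell by scaffold proteins, among them harmonin (Ush1c) and SANS (Ush1g). Ankle links join the bases of growing stereocilia in the first postnatal days of the mouse. They contain the very large receptor Adgrv1 and are held by the PDZ scaffolds whirlin (Whrn) and Pdzd7. Clarin 1 (Clrn1) and its relative clarin 2 (Clrn2) are small membrane proteins needed for the bundle, and Gipc3 is a PDZ protein of hair cells. In people, variants of these genes cause Usher syndrome, which joins deafness with retinal degeneration, or deafness alone.

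The start regions of 6 of the 8 members were held in the RefSeq promoter table (GRCm38.p6), each as a window of 300 bases from 250 before the start to 50 after it. Those of Ush1g and Clrn2 were not used here. Of these, 3 are shown, 5′ to 3′ on the minus strand that carries the gene. Ush1c and Adgrv1 were the tested members whose genotypes did not overlap, and Clrn1 varied most between libraries among members above 5 TPM, so they were chosen after their values were seen. Capitals mark each E-box, CANNTG, the core that basic helix-loop-helix factors such as the hair cell factor Atoh1 can bind.
Ush1c, chr7:46238441-46238740: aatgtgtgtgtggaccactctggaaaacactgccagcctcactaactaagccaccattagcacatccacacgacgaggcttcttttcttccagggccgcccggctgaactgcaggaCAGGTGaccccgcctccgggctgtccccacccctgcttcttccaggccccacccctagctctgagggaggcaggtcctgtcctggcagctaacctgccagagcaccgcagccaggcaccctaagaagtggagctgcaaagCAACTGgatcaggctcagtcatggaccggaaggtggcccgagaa
Adgrv1, chr13:81633095-81633394: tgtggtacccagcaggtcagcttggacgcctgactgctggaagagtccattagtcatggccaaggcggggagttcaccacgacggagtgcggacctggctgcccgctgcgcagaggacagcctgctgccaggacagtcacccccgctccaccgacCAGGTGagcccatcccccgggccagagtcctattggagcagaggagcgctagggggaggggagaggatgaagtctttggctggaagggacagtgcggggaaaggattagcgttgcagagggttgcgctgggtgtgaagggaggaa
Clrn1, chr3:58885163-58885462: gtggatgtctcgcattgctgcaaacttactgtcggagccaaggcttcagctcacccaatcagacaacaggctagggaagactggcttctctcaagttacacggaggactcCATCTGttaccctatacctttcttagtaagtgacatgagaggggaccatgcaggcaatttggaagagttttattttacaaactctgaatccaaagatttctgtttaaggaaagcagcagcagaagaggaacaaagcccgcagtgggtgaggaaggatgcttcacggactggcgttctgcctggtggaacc

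An E-box (CANNTG, which reads the same on both strands) lay in 4 of the 6 windows, against 72.3% of 32851 windows of the same length in the table. Ush1c and Pdzd7 had 2 each, Adgrv1 and Clrn1 had 1 each, and Whrn and Gipc3 had 0. The form CAGCTG, a subset of CANNTG, was found in Pdzd7, 1 of the 6, against 16.3% of all windows. The TATA box TATAAA, searched on both strands, was in 0 of the 6, against 13.6% of all windows. The windows differed widely in base composition. Gipc3 and Whrn held 72.3% and 70.0% G or C with 30 and 29 CpG sites, while Clrn1 held 48.7% with 6 and Pdzd7 51.0% with 2. The median over all windows was 52.7% with 7 CpG sites. A match of letters is not a binding site, and no binding was measured in this study.

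Levels are in TPM, a measure of transcript abundance that corrects for transcript length and has the same total in every library, so levels of different genes can be set side by side. Read depth is unknown, because TPM keeps no read totals, and no counting interval can be given. The difference between genotypes is given as a log2 fold change, knockout minus wild type, of TPM + 1 from limma, with its standard error (SE). The pseudocount of 1 understates the change of low genes. Errors of means are SD with n = 3 libraries. A feature was tested when 3 or more libraries held 1 TPM or more of it, which gave 17097, and the threshold was a Benjamini-Hochberg adjusted p of 0.05 over all of them.

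Plscr5, the targeted gene, had 4.30, 3.69 and 5.01 TPM in knockout cochleae, against 14.53, 12.42 and 9.27 TPM in wild-type cochleae. Every knockout library was below every wild-type library. Its log2 fold change of -1.28 (SE 0.18, limma adjusted p = 0.29) exceeded that of each tested member in size.

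None of the 8 genes passed that threshold. In all, 7 were tested, and Ush1g was too low. Each tested member was lower on average in knockout cochleae, by log2 fold changes from -0.29 for Clrn2 to -0.014 for Clrn1 and a median of -0.19. Over all tested features the median was -0.011, and 53.4% had a negative log2 fold change. By limma 0 of the 7 passed as lower, against 0.0117% of all tested features (2 of 17097), and 0 passed as higher, against 0%. At an unadjusted p under 0.05, 1 of the 7 was lower in the knockout, Ush1c, against 1.85% of all tested features. Knockout values lay below every wild-type value at 2 of the 7, Ush1c and Adgrv1, against 4.74% of all tested features, and above every one at 0 of the 7, against 4.60%. The count of 7 lower members was 6 without knockout replicate 2, knockout replicate 3, wild type replicate 1 or wild type replicate 2, and Clrn1 was the exception each time. Leaving out single libraries moved the median to -0.081 (knockout replicate 3 out), -0.11 (knockout replicate 2 out) and -0.12 (wild type replicate 2 out). Whole cochlea holds many cell types, so cell content and RNA per cell cannot be told apart in these values.

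**Figure D1:**
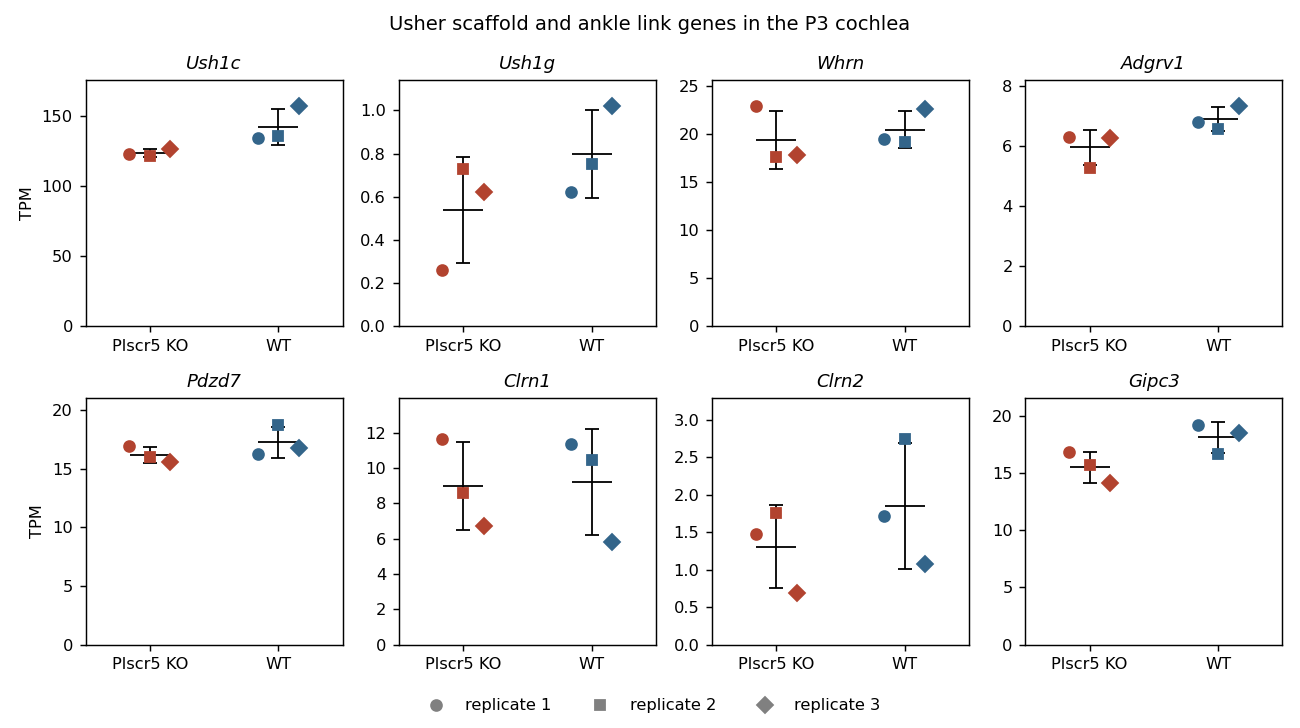
Level of each gene in TPM (y axis, from 0) in the 3 Plscr5 knockout libraries (red, left) and the 3 wild-type libraries (blue, right) of each panel. Symbols mark the replicate number, and bars give the mean and SD. Ush1c and Adgrv1 have no overlap between genotypes, while the Clrn1 groups cover the same range.

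Ush1c, the PDZ scaffold harmonin that binds the tip-link cadherins, was the most abundant of the 8 genes by far. It stood at 123.01, 121.52 and 126.75 TPM in the knockout libraries, against 134.51, 135.91 and 157.33 TPM in the wild-type libraries. Every knockout library was below every wild-type library, and wild type replicate 3 was the highest of the 6. Knockout libraries averaged 124 ± 2.7 TPM and wild-type libraries 143 ± 13 TPM, and 86.8% of the wild-type level was measured in the knockout. The log2 fold change was -0.20 (SE 0.078, 95% confidence interval -0.38 to -0.020, unadjusted p = 0.0335, limma adjusted p = 0.989). It ranked 443 by p among the tested features. The exact permutation test on its 6 values, two-sided, gave p = 0.1, the smallest that 3 against 3 libraries allow. Without wild type replicate 3 the log2 fold change was -0.13. A transcript model of unsettled type, Gm9860, overlaps Ush1c on the opposite strand, and the sources used here do not say whether counting used strand.

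Ush1g, the ankyrin-repeat scaffold SANS that works beside harmonin at the upper end of the tip link, was the least abundant. It had 0.26, 0.73 and 0.62 TPM in knockout cochleae, against 0.62, 0.75 and 1.02 TPM in wild-type cochleae. Only wild type replicate 3 reached 1 TPM, so Ush1g was not tested, and the genotypes overlapped. Knockout libraries averaged 0.537 ± 0.246 TPM and wild-type libraries 0.797 ± 0.204 TPM (two-sided exact permutation p = 0.3). The protein-coding gene Otop2 overlaps Ush1g on the opposite strand, which makes the low value of Ush1g uncertain as well.

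The ankle link receptor Adgrv1, whose longest annotated transcript has 90 exons and 19338 bases, had 6.30, 5.28 and 6.28 TPM in knockout cochleae, against 6.79, 6.57 and 7.33 TPM in wild-type cochleae. All knockout values were below all wild-type values, and knockout replicate 2 was the lowest. Knockout libraries averaged 5.95 ± 0.58 TPM and wild-type libraries 6.90 ± 0.39 TPM. The log2 fold change of -0.19 (SE 0.13, 95% confidence interval -0.49 to 0.12, limma adjusted p = 0.989) did not pass. It was -0.11 without knockout replicate 2. The annotation holds 3 models that overlap Adgrv1. An antisense model and a processed pseudogene lie on the opposite strand, and 1 model of unsettled type lies on its own strand.

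Whrn, the scaffold that sits both at the ankle links and, with Myo15a and Eps8, at the tips of stereocilia, had 22.93, 17.58 and 17.81 TPM in knockout cochleae, against 19.50, 19.23 and 22.66 TPM in wild-type cochleae. The highest and the lowest value were both in knockout libraries, so the groups overlapped fully. Knockout libraries averaged 19.4 ± 3.02 TPM and wild-type libraries 20.5 ± 1.91 TPM (log2 fold change -0.077, SE 0.13, 95% confidence interval -0.37 to 0.22). Without wild type replicate 3 the log2 fold change was -0.0047, and without knockout replicate 1 it was -0.20. The annotation gives Whrn 17 transcripts, the most of the 8 genes, with coding models from 590 to 4049 bases. The values here sum over all isoforms, and long and short whirlin cannot be told apart.

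Pdzd7, the whirlin-like scaffold that organises the ankle link complex, had 16.88, 16.02 and 15.58 TPM in knockout cochleae, against 16.22, 18.74 and 16.71 TPM in wild-type cochleae. The groups overlapped, with wild type replicate 2 above the other 5 libraries. Knockout libraries averaged 16.2 ± 0.66 TPM and wild-type libraries 17.2 ± 1.34 TPM. Pdzd7 was the steadiest of the 8 genes, with an SD of 0.088 on the log2(TPM + 1) scale over the 6 libraries. Its log2 fold change was -0.085 (SE 0.099, 95% confidence interval -0.31 to 0.14), and the lower end of that interval is a change of -19.6% in TPM + 1. The log2 fold change was -0.026 without wild type replicate 2. The protein-coding gene Lzts2 overlaps Pdzd7 on the opposite strand.

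The clarins varied more between libraries of 1 genotype than between genotypes. Clrn1 had 11.63, 8.59 and 6.73 TPM in knockout cochleae, against 11.36, 10.46 and 5.80 TPM in wild-type cochleae. The 2 groups covered the same range, and the lowest value was that of wild type replicate 3, in which Ush1c, Ush1g and Adgrv1 were at their highest. Knockout libraries averaged 8.98 ± 2.47 TPM and wild-type libraries 9.21 ± 2.98 TPM (log2 fold change -0.014, SE 0.27, 95% confidence interval -0.63 to 0.61). Its SD over the 6 libraries, 0.37 on the log2(TPM + 1) scale, was larger than that of 90.3% of 2118 tested protein-coding genes within 0.5 log2 units of its level. Without wild type replicate 3 the log2 fold change of Clrn1 was -0.28, and without knockout replicate 3 it was 0.16.

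Clrn2, the other clarin, had 1.48, 1.75 and 0.69 TPM in knockout cochleae, against 1.72, 2.74 and 1.07 TPM in wild-type cochleae. The groups overlapped, and replicate 3 was the lowest of its genotype in both, as it was for Clrn1. Knockout libraries averaged 1.31 ± 0.55 TPM and wild-type libraries 1.84 ± 0.84 TPM. Its log2 fold change of -0.29 (SE 0.29, 95% confidence interval -0.95 to 0.37) was the largest of the 7 in size and the least certain. It was -0.081 with knockout replicate 3 left out, -0.071 without wild type replicate 2 and -0.50 without wild type replicate 3.

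Gipc3, a PDZ protein whose relative Gipc1 binds myosin VI, had 16.79, 15.64 and 14.09 TPM in knockout cochleae, against 19.21, 16.61 and 18.49 TPM in wild-type cochleae. A single pair crossed, since knockout replicate 1 lay just above wild type replicate 2. Knockout libraries averaged 15.5 ± 1.35 TPM and wild-type libraries 18.1 ± 1.34 TPM, and 85.7% of the wild-type level was measured in the knockout. The log2 fold change was -0.21 (SE 0.11, 95% confidence interval -0.46 to 0.038, unadjusted p = 0.0866, limma adjusted p = 0.989). It stayed between -0.27 and -0.15 when single libraries were left out.

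**Figure D2:**
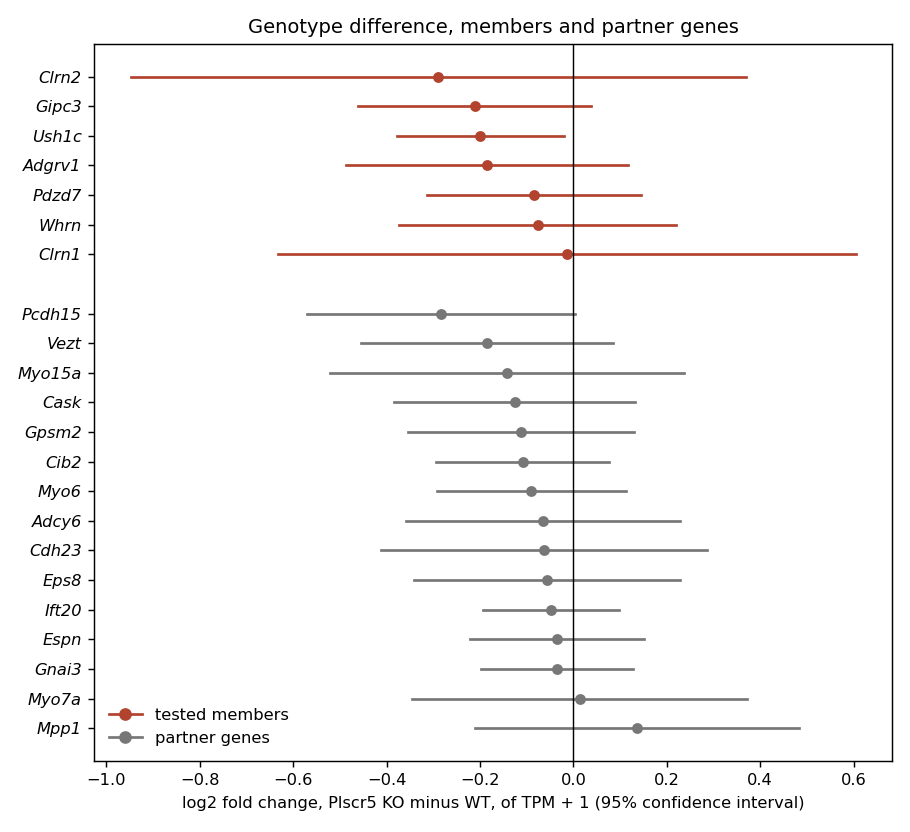
Log2 fold change (x axis, Plscr5 knockout minus wild type, of TPM + 1) of the 7 tested members (red) and 15 tested partner genes (grey), with 95% confidence intervals from limma. The interval of Ush1c, from -0.38 to -0.020, is the only one of the 22 that leaves out 0, and no gene passed after adjustment.

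The order of the levels was the same in both genotypes at its ends. Ush1c averaged 133 TPM over the 6 libraries, 6.67 times the next gene, Whrn at 20.0 TPM. Whrn was above Gipc3 (16.8 TPM) in 6 of 6 libraries, although their ranges overlapped. Gipc3 and Pdzd7 (16.7 TPM) did not differ beyond their spread, with Gipc3 higher in 2 of 6 libraries. Clrn1 (9.10 TPM) was above Adgrv1 (6.43 TPM) in 5 of 6, and the exception was wild type replicate 3. Clrn2 (1.58 TPM) was above Ush1g (0.667 TPM) in 6 of 6. Both scaffolds of the tip link end were thus at the extremes, Ush1c above 93.3% of 14237 tested protein-coding genes and Ush1g under the filter. The 8 genes summed to between 187 and 199 TPM in the knockout libraries and between 210 and 230 TPM in the wild-type libraries. Ush1c made up between 61.7% and 67.2% of the sum in the knockout and between 64.1% and 68.3% in the wild type.

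Partner genes of the Usher and ankle link complexes had a median log2 fold change nearer to 0, a contrast with the members that was not tested. Of 16 listed partners 15 were tested, and Cib3 was listed at 0 in all 6 libraries. By limma 0 of the 15 passed, 0 had an unadjusted p under 0.05, and 13 were lower and 2 higher (median log2 fold change -0.065). Without wild type replicate 3 the counts were 9 lower and 6 higher (median -0.027). The median was -0.12 with knockout replicate 1 left out, -0.041 with knockout replicate 2 and -0.098 with wild type replicate 2. The tip-link cadherin Pcdh15 had 8.62, 7.84 and 7.10 TPM in knockout cochleae, against 10.59, 9.37 and 9.34 TPM in wild-type cochleae. Its genotypes did not overlap, the knockout lower, which held for 1 of the 15 partners, against 4.74% of all tested features. The log2 fold change of Pcdh15 was -0.28 (SE 0.12, limma adjusted p = 0.989). Vezt, which encodes the ankle link protein vezatin, had a log2 fold change of -0.19, the whirlin-binding scaffold gene Cask one of -0.13, and Cib2, a calcium-binding partner of the transduction channel, one of -0.11, and the genotypes overlapped at all 3. Of the relatives of the members, Gipc1 averaged 84.6 ± 6.4 TPM in knockout libraries and 90.3 ± 4.07 TPM in wild-type ones, and Gipc2 2.99 ± 0.39 TPM in knockout and 3.66 ± 1.15 TPM in wild-type libraries. Clrn3 and the microvillus genes Anks4b, Myo7b, Cdhr2 and Cdhr5 did not exceed 0.3 TPM in any library.

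Other hair bundle lists had negative medians too, and no difference between lists was tested. Of 9 transduction and tip link genes 8 were lower (median log2 fold change -0.14), and of 22 genes of the stereocilia actin core, base and tip 18 were lower (median -0.13). Without wild type replicate 3 the actin list had 14 lower and 8 higher with a median of -0.049, and without knockout replicate 2 its median was -0.083 and that of the transduction list -0.068. The transduction list shares Cib2, Cdh23, Pcdh15 and Myo7a with the partners. The actin list shares Espn, Eps8, Myo15a and Gpsm2 with the partners. Knockout values lay below every wild-type value at 3 of the 9 transduction genes: Pcdh15, the channel gene Tmc2 (-0.28) and Lhfpl5 (-0.14). They did so at 4 of the 22 actin genes: Myo3b (-0.27), Pls1 (-0.20), Ptprq (-0.29) and Xirp2 (-0.30). The share over all tested features was 4.74%. Knockout values lay above every wild-type value at 0 genes of either list, against 4.60%. No gene of these lists passed after adjustment.

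Hair cell markers outside the bundle were also lower on the whole, though 0 of 20 passed by limma. At an unadjusted p under 0.05, 3 of the 20 were lower in the knockout, against 1.85% of all tested features. Knockout values lay below every wild-type value at 5 of the 20, against 4.74%, and above every one at 0, against 4.60%. Of 20 markers 16 were lower and 4 higher (median log2 fold change -0.13), or 14 lower and 6 higher with a median of -0.063 without wild type replicate 3. Their summed level ran from 1017 to 1072 TPM in the knockout libraries and from 1071 to 1084 TPM in the wild-type libraries, and no defining marker was at 0. Kcna10 (-0.42) and Strip2 (-0.23) had the smallest p among them. When the mean of the markers was subtracted within each library, the difference between genotypes was -0.097 for Ush1c, -0.084 for Adgrv1, -0.11 for Gipc3, -0.19 for Clrn2, 0.025 for Whrn, 0.017 for Pdzd7 and 0.088 for Clrn1, all on the log2 scale. Ush1c remained lower in all 3 knockout libraries on that scale, at 2.22, 2.23 and 2.24, against 2.25, 2.33 and 2.40 in the wild type (two-sided exact permutation p = 0.1, the smallest possible, and 0.7 after Benjamini-Hochberg adjustment over 7 such tests). Adgrv1 overlapped there (exact permutation p = 0.2, adjusted p = 0.7). With the marker score as a covariate in limma, Ush1c had a log2 fold change of -0.051 (SE 0.10) and Adgrv1 one of -0.048 (SE 0.20), both nearer to 0. In that fit Clrn2 had -0.97 (SE 0.31), Clrn1 -0.56 (SE 0.33) and Pdzd7 -0.18 (SE 0.16), all farther from 0, while Gipc3 had -0.15 and Whrn 0.081. The median of the 7 was -0.15, and none passed. The score was lower in every knockout library (-0.048, -0.079 and -0.026) than in every wild-type one (0.046, -0.019 and 0.126). Score and genotype thus went together in these 6 libraries, and this fit cannot separate their parts. In the same fit the neuron markers had a median log2 fold change of -0.31, against 0.73 without the score.

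Nerve genes were the marker lists with the largest medians. Of 14 neuron markers 12 were higher in the knockout (median log2 fold change 0.73), and of 12 Schwann cell markers 10 were higher (median 0.80), with 0 passing by limma and 0 at an unadjusted p under 0.05 in either list. With wild type replicate 3 left out, 13 neuron markers (median 0.28) and 10 Schwann cell markers (median 0.27) were higher. Relative to the mean of all libraries, the neuron markers had a median of -1.32 and the Schwann cell markers one of -1.47 (log2 units) in wild type replicate 3, while the other 5 libraries lay between -0.045 and 0.73. The summed neuron markers ran from 847 to 1106 TPM in the knockout and from 441 to 899 TPM in the wild type, and the Schwann cell markers from 1798 to 2536 TPM in the knockout and from 910 to 1758 TPM in the wild type. That library had the highest Ush1c, Ush1g and Adgrv1 and the lowest Clrn1, and the part of nerve content in these values was not tested. With the nerve score as a covariate the log2 fold change was -0.48 (SE 0.18) for Clrn1, -0.67 (SE 0.28) for Clrn2, -0.093 (SE 0.075) for Ush1c and -0.21 for Gipc3. In that fit it was -0.13 for Adgrv1, -0.14 for Pdzd7 and -0.021 for Whrn, and the median of the 7 was -0.14. None passed (limma adjusted p of 0.738 for both clarins). The retina also uses many of these genes, and photoreceptor markers summed to between 1.66 and 2.77 TPM in the knockout and between 1.38 and 1.67 TPM in the wild type.

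**Figure D3:**
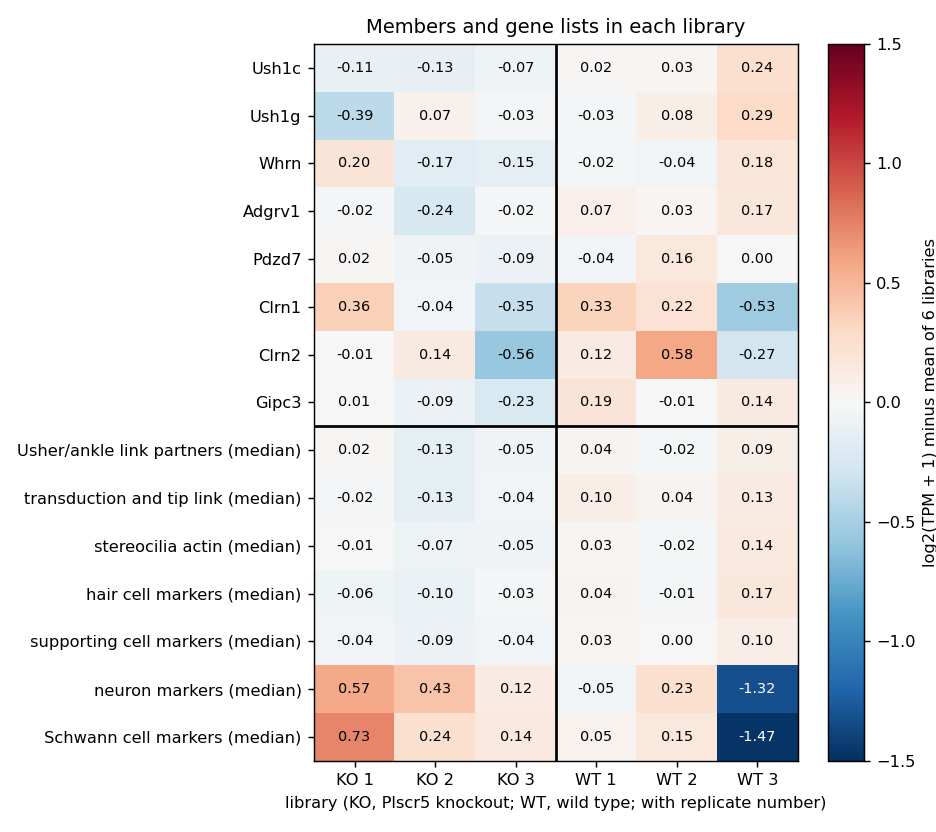
Each cell gives log2(TPM + 1) in 1 library minus the mean of the 6 libraries, for the 8 genes (above the line) and as medians of the partner, bundle and marker lists (below it), with the 3 Plscr5 knockout libraries left of the 3 wild-type ones. Wild type replicate 3 has the highest Ush1c (0.24), the lowest Clrn1 (-0.53) and neuron and Schwann cell medians of -1.32 and -1.47.

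Replicates of 1 genotype thus differed in which members were high. Knockout replicate 1 had the highest Whrn and Clrn1 of the 6 libraries and the lowest Ush1g, and knockout replicate 3 had the lowest Pdzd7, Clrn2 and Gipc3. The mean of the 7 tested members, each centred on its own mean, was 0.064, -0.081 and -0.21 log2 units in the knockout libraries and 0.097, 0.14 and -0.0090 in the wild-type libraries, so the groups overlapped. The clarins carry the largest swings in that mean. Of 14230 other tested protein-coding genes, those most like it were Cep350, Fzd8, Shc3, Trim27 and Tmem211, with Pearson r from 0.981 to 0.988 over the 6 libraries, as a description with no test. None of them is in the partner or bundle lists.

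**Figure D4:**
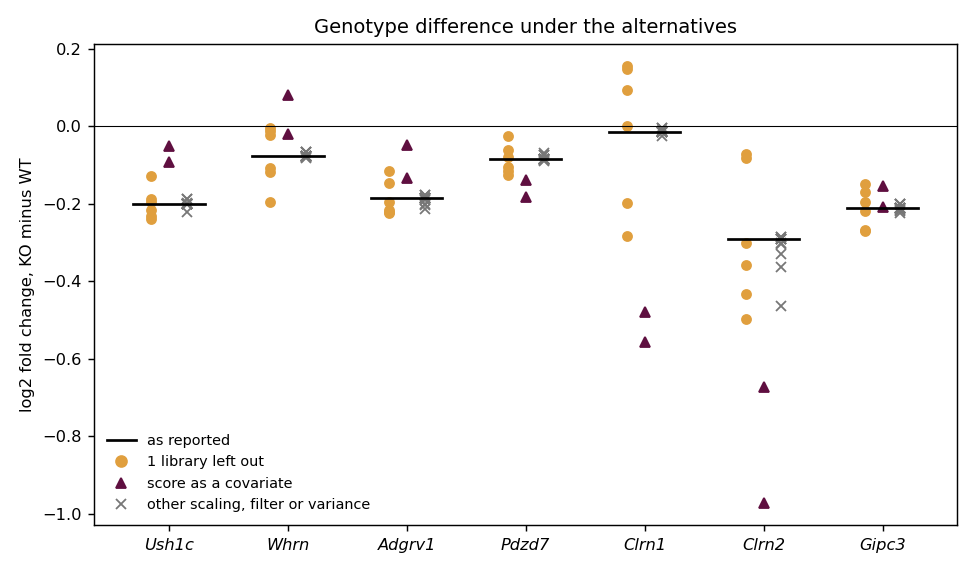
Log2 fold change (y axis, knockout minus wild type) of the 7 tested members as reported (black line) and under 20 alternatives: 1 library left out (orange), a hair cell or nerve score as a covariate (purple) and other scalings, filters or variance settings (grey). Clrn1 runs from -0.56 to 0.16 and crosses 0, while Gipc3 stays between -0.27 and -0.15. Clrn2 has 19 alternatives, since the filter at 5 TPM left it out.

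The 95% confidence intervals of Ush1c, Whrn, Adgrv1, Pdzd7 and Gipc3 reached no lower than -0.49, and those of the clarins reached -0.63 for Clrn1 and -0.95 for Clrn2.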

How the data were processed

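The 6 deposited files hold TPM values with 2 decimals that sum to 1000000 per library. The authors scaled them, and the unit was read from the values. DESeq2 and the build mm8 appear in the submitters' processing notes with no role. Which aligner, quantifier and annotation they used was not given in the sources used here. Symbols and transcript models came from GENCODE M21 (GRCm38) and promoter windows from RefSeq. No gene coordinates were taken from the files.

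A feature was kept when 3 or more libraries held 1 TPM or more of it. Values on the log2(TPM + 1) scale were fitted in R 4.3.3 by limma 3.58.1, its variance trend and robust moderation switched on. The p-values were adjusted by Benjamini-Hochberg over 17097 features. Of 147 list symbols 146 matched an ID, Myo15a through the RefSeq synonym of Myo15. The members and lists were chosen with earlier results of these data known. Besides the members and Plscr5, the genes named were up to 4 with the smallest p of the partner and bundle lists, relatives with a mean of at least 1 TPM, up to 2 of a marker list and the 5 most alike in profile. Cib3 and the microvillus genes were chosen once values were known, and 1 partner gene is not reported here. The limma fit was tested on simulated data. It recovered 37.1% of 62 changes of 1.5-fold, 68.6% of 70 of 2-fold and 95.6% of 68 of 4-fold. Changes as small as those of the members were not simulated. The 20 alternatives covered pseudocounts, filters, scalings, variance settings, covariates, a replicate block and each library left out.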

Additional observations from a re-analysis of the deposited data

How the results depend on the processing

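No member passed the threshold in any of the 20 alternatives, by limma, and the median of the tested members stayed negative in all 20, from -0.20 to -0.081, and ranged from -0.20 to -0.081 over the libraries left out. Clrn1 had a positive log2 fold change without knockout replicate 2 (0.00073), knockout replicate 3 (0.16), wild type replicate 1 (0.15) or wild type replicate 2 (0.094). Its lowest was -0.28 over the libraries left out and -0.56 over all 20, with the hair cell score as a covariate. Whrn had a log2 fold change of 0.081 with the hair cell score as a covariate. The cause was not tested. The other 5 tested members stayed negative wherever they were tested. For Clrn2 that was 19 alternatives, since the filter at 5 TPM left it out. Over all features the count past the threshold, 2 as reported, was 0 without a filter, without the variance trend, with the replicate block and with the hair cell score, 1 with TMM factors, with median of ratios and without haemoglobin and mitochondrially encoded genes, and 4 with the nerve score. It ran from 0 to 3 over the 6 fits with a library left out. Libraries share only a replicate number, and the labels do not say whether same-numbered libraries were paired. The deviations of same-numbered libraries had r of 0.188, -0.055 and 0.242, and 1 of 3 pairs fell under 0.1. Different-numbered pairs had r from -0.269 to 0.126. The replicate block gave 0 members past the threshold. With 3 libraries per genotype, 1 of each replicate number, neither the block nor the variance settings can change a log2 fold change. The median of -0.19 was thus fixed in those fits. With the block, the features at an unadjusted p under 0.05 rose from 684 to 1250. The SE fell from 0.27 to 0.13 for Clrn1 and from 0.29 to 0.18 for Clrn2. The list counts and medians with libraries left out were chosen after seeing the data. Genes under 1 TPM, such as Ush1g, cannot be judged here.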

Other observations

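Markers of other cell types were also set beside the members. Of 15 supporting cell markers 14 were lower and 1 higher in the knockout, with a median log2 fold change of -0.084, and none passed by limma, also at an unadjusted p under 0.05. The median was -0.047 without wild type replicate 3 and -0.14 without wild type replicate 2, and 11 were lower without knockout replicate 3. The Notch effector Hes5 averaged 21.1 ± 2.5 TPM in knockout libraries and 28.0 ± 6.3 TPM in wild-type ones, and the connexin gene Gjb2 234 ± 5 TPM in knockout and 263 ± 28 TPM in wild-type libraries. Of 9 otic fibroblast markers 7 were higher (median 0.071), and the one with the smallest p was Mgp, an inhibitor of calcification, with 119 ± 3 TPM in knockout and 92.2 ± 7.9 TPM in wild-type libraries. The fibroblast counts were 4 higher and 5 lower without wild type replicate 1 (median -0.013). Of 8 tested osteoblast markers 7 were higher (median 0.23). All 5 tested red blood cell markers were lower (median -0.47, or -0.066 without knockout replicate 1 and -0.98 without knockout replicate 2), with a summed level from 443 to 1482 TPM in the knockout libraries and from 911 to 1048 TPM in the wild-type libraries. None of these markers passed after adjustment.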
